A study of Rattus norvegicus with 4 samples.

Results

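The insulin-like growth factor (IGF) system was followed through 10 genes, the ligands Igf1 and Igf2, the receptors Igf1r and Igf2r, and the binding proteins Igfbp2, Igfbp3, Igfbp4, Igfbp5, Igfbp6 and Igfbp7. Every probe set annotated to exactly 1 of these symbols was taken, which gave 23 of the 31099 probe sets and 10 of the 14218 named genes. Sprague-Dawley rat aortic smooth muscle cells were kept 3 days in medium with serum and another 3 days in medium without it. The 4 groups were IL-1b (interleukin-1b, an inflammatory cytokine, 2.5 ng/mL), the IL-1b vehicle (10 mM acetic acid plus 0.1% bovine serum albumin, BSA), PDGF-DD (30 ng/mL, a dimer of the platelet-derived growth factor family and a ligand of PDGF receptor beta) and the PDGF-DD vehicle (0.01% BSA), all harvested after 24 h. The labels name no genetic change in any group, and each group was 1 sample on 1 Affymetrix array. No difference below has a replicate check, so no test was run and no SD or p-value is given.

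As background, IGF-I and IGF-II drive growth and survival through the IGF-I receptor, a receptor tyrosine kinase that signals through IRS and SHC adaptors to PI3K, AKT and MAP kinases. The IGF-II receptor, which also carries mannose 6-phosphate-tagged enzymes to lysosomes, takes up IGF-II and has no kinase. The binding proteins hold IGFs in the extracellular space and can either limit or prolong their action, and IGFs are known mitogens and survival factors of vascular smooth muscle cells.

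Of the 10 genes, 3 were at least 2-fold apart in some comparison of a factor with its vehicle or of the vehicle arrays. All 3 were binding proteins, which make up most of the 10. Over all genes measured, 11.6% were at least 2-fold apart with IL-1b, 8.91% with PDGF-DD and 10.5% between the vehicle arrays. The share apart in any of these comparisons is not given here. Igfbp2 was lower with both factors, and Igfbp4 was lower with the PDGF-DD vehicle than with the IL-1b vehicle. The Igfbp4 reading with the PDGF-DD vehicle could not be told from background. Igfbp6 was lower with IL-1b, where it was at the floor and could only be lower. The 250 bases before the RefSeq start of each of these genes (build GRCr8) are shown so that their promoters can be set side by side, with matches to the motifs searched in capitals.
Igfbp2 (chr9:81864561-81864810, plus strand): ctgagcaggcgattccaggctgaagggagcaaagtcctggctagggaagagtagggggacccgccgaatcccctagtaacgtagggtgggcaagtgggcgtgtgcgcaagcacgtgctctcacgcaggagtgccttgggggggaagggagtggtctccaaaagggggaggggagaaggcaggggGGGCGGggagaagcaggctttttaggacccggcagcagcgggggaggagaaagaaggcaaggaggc
Igfbp6 (chr7:135154669-135154918, plus strand): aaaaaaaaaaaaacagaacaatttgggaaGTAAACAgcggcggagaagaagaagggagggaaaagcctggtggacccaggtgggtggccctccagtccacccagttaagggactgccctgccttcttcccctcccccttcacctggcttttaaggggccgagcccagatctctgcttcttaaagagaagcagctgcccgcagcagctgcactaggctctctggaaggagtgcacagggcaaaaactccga
Igfbp4 (chr10:84491221-84491470, plus strand): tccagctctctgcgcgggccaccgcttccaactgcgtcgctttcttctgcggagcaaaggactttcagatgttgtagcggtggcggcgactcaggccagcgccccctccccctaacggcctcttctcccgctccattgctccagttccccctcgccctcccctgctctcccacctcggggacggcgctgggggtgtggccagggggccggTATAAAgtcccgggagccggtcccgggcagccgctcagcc

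The motifs searched, on both strands, were TATAAA (the TATA box), TGANTCA (the AP-1 site), TGTTTAC (the FOXO site), GGGCGG (the GC box) and an NF-kappaB site with 1 free base, with none overlapping another in these windows. The GC box was added after the sequences were seen, and the windows of Igfbp4 and Igfbp6 were chosen for printing after their values were known. The Igfbp2 window held 1 GC box, starting 66 bases before the start, and the Igfbp4 window held 1 TATAAA, starting 40 bases before it. The Igfbp6 window held 1 FOXO match on the minus strand, 221 bases before the start. Among the windows of the same length before all 33469 RefSeq starts, 30.5% held the GC box, 12.9% TATAAA, 3.21% the FOXO letters, 6.34% the AP-1 letters and 0.314% the NF-kappaB site. The AP-1 and NF-kappaB sites were in none of the windows of the 10 genes. The GC content was 64% before Igfbp2, 54.8% before Igfbp6 and 68.8% before Igfbp4, against a median of 51.2% over all starts. Neither this nor the GC box was particular to these genes. The GC content was 79.6% before Igf1r, 74.4% before Igfbp7, 71.6% before Igfbp3 and 68% before Igf2r. It was 62.4% and 63.6% before the Igf2 starts, 51.6% before Igfbp5 and 46.8% before Igf1. The GC box was also in the windows of Igf1r, Igf2r and Igfbp7 and in 1 window of Igf2. These matches describe the letters of the windows only.

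Values are linear intensities after every array was rescaled to the same trimmed mean. Intensities under a floor of 28.1 (the 40th percentile over all arrays together) were treated as not above background and set to the floor before the log2 ratio was taken. A ratio with 1 array at the floor is a bound, written as "at least". Different probe sets bind their targets with different strength, so a level is compared between arrays for 1 gene and never between genes. Where a gene had several probe sets, the brightest by mean log2 level stood for it and the others are given beside it. Between 58.3% and 61.5% of probe sets per array exceeded the floor. As a check of the floor, 8 of 10 genes restricted to other organs were at it on all 4 arrays. The exceptions were Gfap, at 29.0 on the IL-1b array, and Ins1, at 65.4 and 33.1 on the IL-1b vehicle and PDGF-DD vehicle arrays, so a gene of another organ could read as high as that.

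Smooth muscle identity was checked by 7 markers, of which 6 (Acta2, Tagln, Cnn1, Myh11, Smtn and Lmod1) were above the floor on all 4 arrays and Des on the IL-1b vehicle array alone. All 6 leukocyte markers and 4 of 5 measured endothelial markers were at the floor on every array, with Tek the exception at 40.02 on the IL-1b vehicle array and 28.8 on the PDGF-DD array. All 5 fibroblast markers (Pdgfra, Dpt, Pi16, Dcn and Lum) were above the floor on some array, and their summed intensity was 7845 with IL-1b against 2271 with its vehicle, and 651 with PDGF-DD against 1353 with its vehicle. Most of that sum was Lum, at 6041 with IL-1b against 2067 with its vehicle, and 372 with PDGF-DD against 1022 with its vehicle. With IL-1b Pdgfra, Dpt and Lum were more than 2-fold higher and Pi16 and Dcn were not, and with PDGF-DD Dpt was higher (104 against 67.3) while Lum was lower. The summed smooth muscle markers were 8428 with IL-1b against 27111 with its vehicle, and 4507 with PDGF-DD against 19871 with its vehicle. As a sign of RNA quality, the 3'/5' ratio of beta-actin intensities was 2.05 with IL-1b against 1.58 with its vehicle, and 1.37 with PDGF-DD against 1.26 with its vehicle. The part of fibroblast-marked cells and of RNA quality in the results below was not tested. In these bulk samples fewer cells of a type and less RNA per cell cannot be told apart.

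Of the ligands, Igf1 was under the floor on every array and Igf2 was above it on 3. Igf1, the ligand of the IGF-I receptor that liver and many mesenchymal cells make, had 3 probe sets, and none was above the floor on any array. The brightest single reading among them was 16.6, on the IL-1b vehicle array. Igf2, the ligand of fetal growth, had 4 probe sets, of which 1 was above the floor on 3 arrays. That probe set read 43.9 with IL-1b, 21.5 (under the floor) with its vehicle, 33.6 with PDGF-DD and 42.9 with the PDGF-DD vehicle. The other Igf2 probe sets were under the floor on every array. All of these readings were below the 65.4 of Ins1 in the check of the floor, so they cannot be told from background. Against its own vehicle, IL-1b gave an Igf2 reading at least 1.56-fold higher, whereas PDGF-DD gave one 1.28-fold lower. When IL-1b was set against the vehicle of PDGF-DD, the log2 ratio of Igf2 was 0.03.

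**Figure D1:**
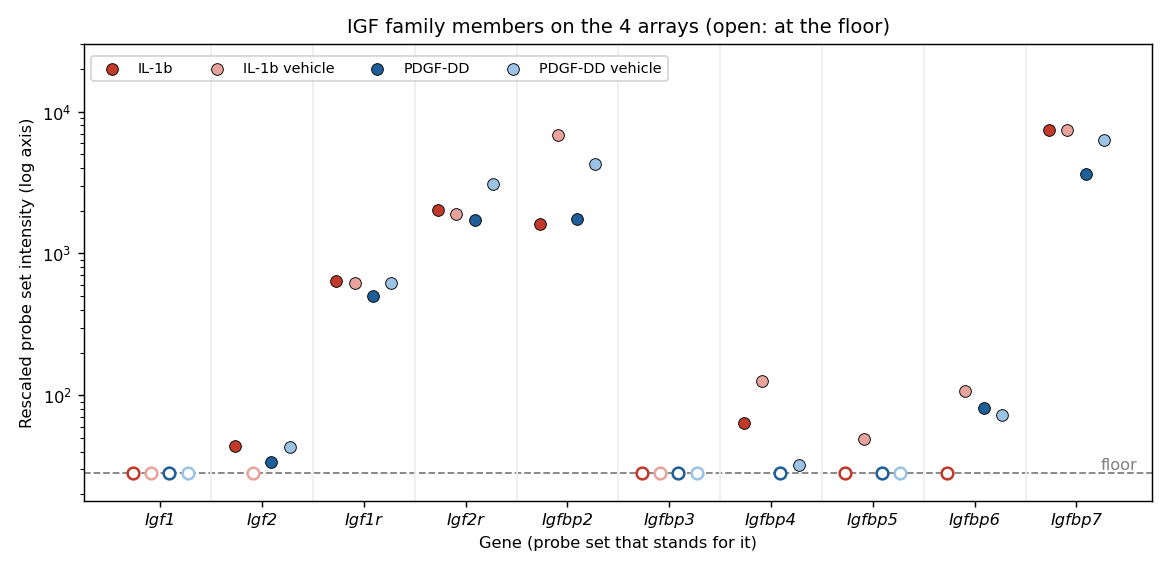
Rescaled intensity (log axis) of the probe set that stands for each of the 10 genes, 1 point per array, in the order IL-1b, IL-1b vehicle, PDGF-DD, PDGF-DD vehicle. Open points lie at the floor of 28.1. Igf1 and Igfbp3 are at the floor on all 4 arrays, and Igfbp2 is lower with either factor (1600 and 1762) than with either vehicle (6873 and 4279).

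The receptors were above the floor on all 4 arrays by every probe set. Igf1r, the signalling receptor, read 643 with IL-1b against 616 with its vehicle, and 502 with PDGF-DD against 623 with its vehicle. The log2 ratios were 0.06 for IL-1b and -0.31 for PDGF-DD, and its other probe set gave 0.32 and -0.03. All of these are under 2-fold, and the vehicle arrays were 1.01-fold apart (0.02 on the log2 scale). The array that stood apart differed between the probe sets. By the first it was PDGF-DD, below the 616 to 643 of the other arrays, and by the second it was IL-1b, at 367 against 295 with its vehicle, beside 293 with PDGF-DD and 300.4 with the PDGF-DD vehicle.

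Igf2r, the uptake receptor of IGF-II, read 2031 with IL-1b against 1911 with its vehicle, and 1733 with PDGF-DD against 3074 with its vehicle. It was 1.77-fold lower with PDGF-DD, a log2 ratio of -0.83, and its other probe set gave -0.65. The PDGF-DD vehicle array was the high one, at 1.61 times the IL-1b vehicle. Set against the IL-1b vehicle array instead, the PDGF-DD log2 ratio was -0.14. With IL-1b the ratios of the probe sets were 0.09 and 0.01.

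Igfbp2, a binding protein that also binds integrins through an RGD motif, had 1 probe set. It read 1600 with IL-1b against 6873 with its vehicle, and 1762 with PDGF-DD against 4279 with its vehicle. Both factor arrays were below both vehicle arrays. Igfbp2 was 4.30-fold lower with IL-1b, a log2 ratio of -2.10, and 2.43-fold lower with PDGF-DD, a log2 ratio of -1.28. The vehicle arrays themselves differed, the PDGF-DD vehicle being 1.61-fold lower than the IL-1b vehicle (-0.68 on the log2 scale). Against the other factor's vehicle the log2 ratio was -1.42 for IL-1b and -1.96 for PDGF-DD, so all 4 pairings of a factor with a vehicle were more than 2-fold apart.

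The place of Igfbp2 among all genes shows how common such differences were. With IL-1b, 127 of 10679 genes (1.19%) had a lower ratio than Igfbp2, and with PDGF-DD 291 of 10142 genes (2.87%). Between the arrays without a factor, 221 of 10389 genes (2.13%) were at least as far apart, in either direction, as Igfbp2 was with IL-1b. For its PDGF-DD ratio the count was 687 genes (6.61%). Differences of this size therefore also occurred between the untreated arrays.

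Igfbp6, which binds IGF-II in preference to IGF-I, had 2 probe sets. The brighter read 15.4 (under the floor) with IL-1b against 106 with its vehicle, and 81.0 with PDGF-DD against 72.4 with its vehicle. The other read 1.71 with IL-1b against 61.4 with its vehicle, and 48.6 with PDGF-DD against 30.8 with its vehicle. Both probe sets were above the floor on every array except the IL-1b one. All readings of the second were below the 65.4 of Ins1 in the check of the floor, so they cannot be told from background. Igfbp6 was at least 3.78-fold lower with IL-1b by the first and at least 2.19-fold by the second. Against the PDGF-DD vehicle array the first gave at least 2.58-fold lower, and the second at least 1.10-fold lower. Both were lowest on the IL-1b array. On the IL-1b array Igfbp6 was at the floor, so it entered this comparison through its vehicle reading and could only be lower. With PDGF-DD the log2 ratios were 0.16 and 0.66. The first probe set carries a suffix that marks probes shared by more than 1 transcript, and the second does not.

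Igfbp4, a binding protein known mainly as an inhibitor of IGF action, had 1 probe set. It read 63.4 with IL-1b against 126 with its vehicle, and 14.0 (under the floor) with PDGF-DD against 32.4 with its vehicle. The arrays fell into pairs, with the IL-1b and IL-1b vehicle arrays above the PDGF-DD and PDGF-DD vehicle arrays. Between the vehicles, where both readings were above the floor, Igfbp4 was 3.90-fold lower on the PDGF-DD vehicle array, a log2 ratio of -1.96. There 92 of 10389 genes (0.886%) had a lower ratio. The 32.4 of the PDGF-DD vehicle and the 63.4 with IL-1b were below the 65.4 of Ins1 in the check of the floor. These readings cannot be told from background, so the sizes of the ratios are uncertain. A floor at the 50th percentile put the ratio between the vehicles at -1.24. With IL-1b Igfbp4 was 1.99-fold lower than with its own vehicle, just under the 2-fold limit, yet 1.96-fold higher than with the PDGF-DD vehicle. With PDGF-DD it was at least 1.15-fold lower than with its own vehicle and lower than with the IL-1b vehicle at a log2 ratio of -2.17 or below. The direction for IL-1b therefore depended on the vehicle it was set against. The 6 cell division markers (Mki67, Top2a, Ccnb1, Cdk1, Aurkb and Birc5) moved with the same split, each more than 2-fold above the IL-1b vehicle array on the PDGF-DD vehicle array, with summed intensities of 4149 and 658. The intensity of bioC, a control RNA added at hybridization, split in the same direction as Igfbp4. It was 585 with IL-1b against 654 with its vehicle, and 187 with PDGF-DD against 264 with its vehicle. The part of either in the Igfbp4 difference was not tested.

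Igfbp5, which binds matrix as well as IGFs, had 5 probe sets, and 2 of them were above the floor on 1 array, the IL-1b vehicle. The brightest read 6.19 with IL-1b against 49.2 with its vehicle, and 11.6 with PDGF-DD against 13.8 with its vehicle. Igfbp5 was at least 1.75-fold lower with IL-1b by this probe set, and at least 1.07-fold by the other. It passed the floor through its vehicle reading alone, so its ratio could not have been other than lower. The 49.2 was also below the 65.4 of Ins1 in the check of the floor, so it cannot be told from background. Igfbp3, the main carrier of IGFs in blood, had 2 probe sets and was under the floor by both on every array, with a highest reading of 21.8 on the IL-1b vehicle array.

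Igfbp7, a secreted relative that binds IGFs with low affinity, had 1 probe set. It read 7454 with IL-1b against 7405 with its vehicle, and 3607 with PDGF-DD against 6323 with its vehicle. The PDGF-DD array stood below the other arrays, and the IL-1b pair was 1.01-fold apart. With PDGF-DD Igfbp7 was 1.75-fold lower, a log2 ratio of -0.81, under the 2-fold limit. Against the IL-1b vehicle array it was 2.05-fold lower, a log2 ratio of -1.04.

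**Figure D2:**
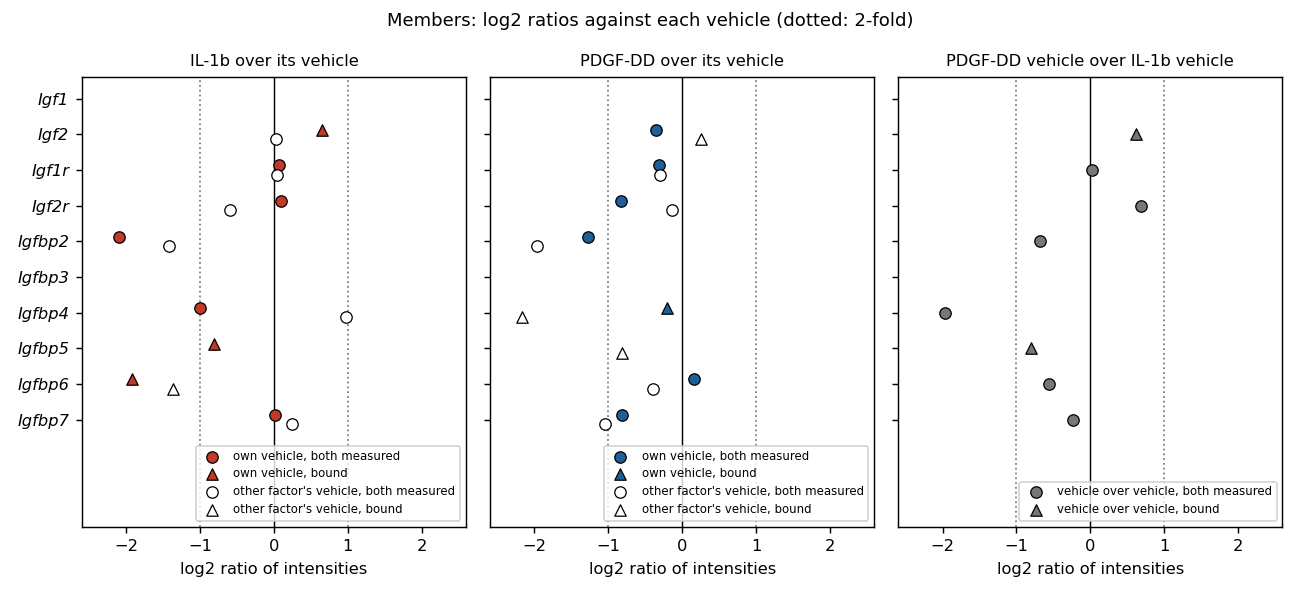
Log2 ratio (x axis) of each gene (rows) for IL-1b (left), PDGF-DD (middle) and the PDGF-DD vehicle over the IL-1b vehicle (right). Filled points are against a factor's own vehicle, open points against the other factor's vehicle, triangles are bounds and dotted lines mark 2-fold. Igfbp2 lies past the lower line in all 4 pairings of a factor with a vehicle, and Igfbp4 with IL-1b lies near the lower line against its own vehicle and at 0.97 against the other.

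Counted over the 10 genes, IL-1b against its vehicle left 8 measured, of which 2 (Igfbp2 and Igfbp6) were at least 2-fold lower and 0 higher. Over all genes 5.42% were at least 2-fold lower and 11.6% were 2-fold apart in either direction. The median log2 ratio of the 8 measured genes was -0.40, against 0.02 over all genes, and 4 ratios were above 0 and 4 below, beside 52.5% of all genes above. Of the 8, 3 (Igf2, Igfbp5 and Igfbp6) were at the floor on 1 array, which fixed their direction. PDGF-DD against its vehicle left 7 measured, of which 1 (Igfbp2) was at least 2-fold lower and 0 higher. Over all genes 4.67% were at least 2-fold lower and 8.91% apart in either direction. The median of the 7 was -0.35, against 0.01 over all genes, with 1 of 7 ratios above 0, beside 51.0% of all genes. Of the 6 below 0, Igfbp4 was at the floor with PDGF-DD, which fixed its direction. Both counts are small, and the lower shares over all genes come to under 1 gene of 8 or of 7.

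Between the vehicle arrays 8 genes were measured and 1 (Igfbp4) was at least 2-fold apart, beside 10.5% of all genes. The median was -0.39 for the 8 genes and -0.05 over all genes, close to the medians with either factor. Against the PDGF-DD vehicle array, IL-1b left 2 of 7 measured genes at least 2-fold lower, again Igfbp2 and Igfbp6, beside 4.97% of all genes lower and 10.4% apart in either direction, and the median of the 7 was 0.03, against 0.08 over all genes. Igfbp6, at the floor with IL-1b, could only be lower. Against the IL-1b vehicle array, PDGF-DD left 3 of 8 at least 2-fold lower (Igfbp2, Igfbp4 and Igfbp7), beside 10.3% of all genes lower and 20.0% apart in either direction. The median of the 8 was -0.60, against -0.05 over all genes. Here Igf2, Igfbp4 and Igfbp5 were at the floor on 1 array, so Igfbp4 could only be lower. These comparisons share arrays with those above.

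**Figure D3:**
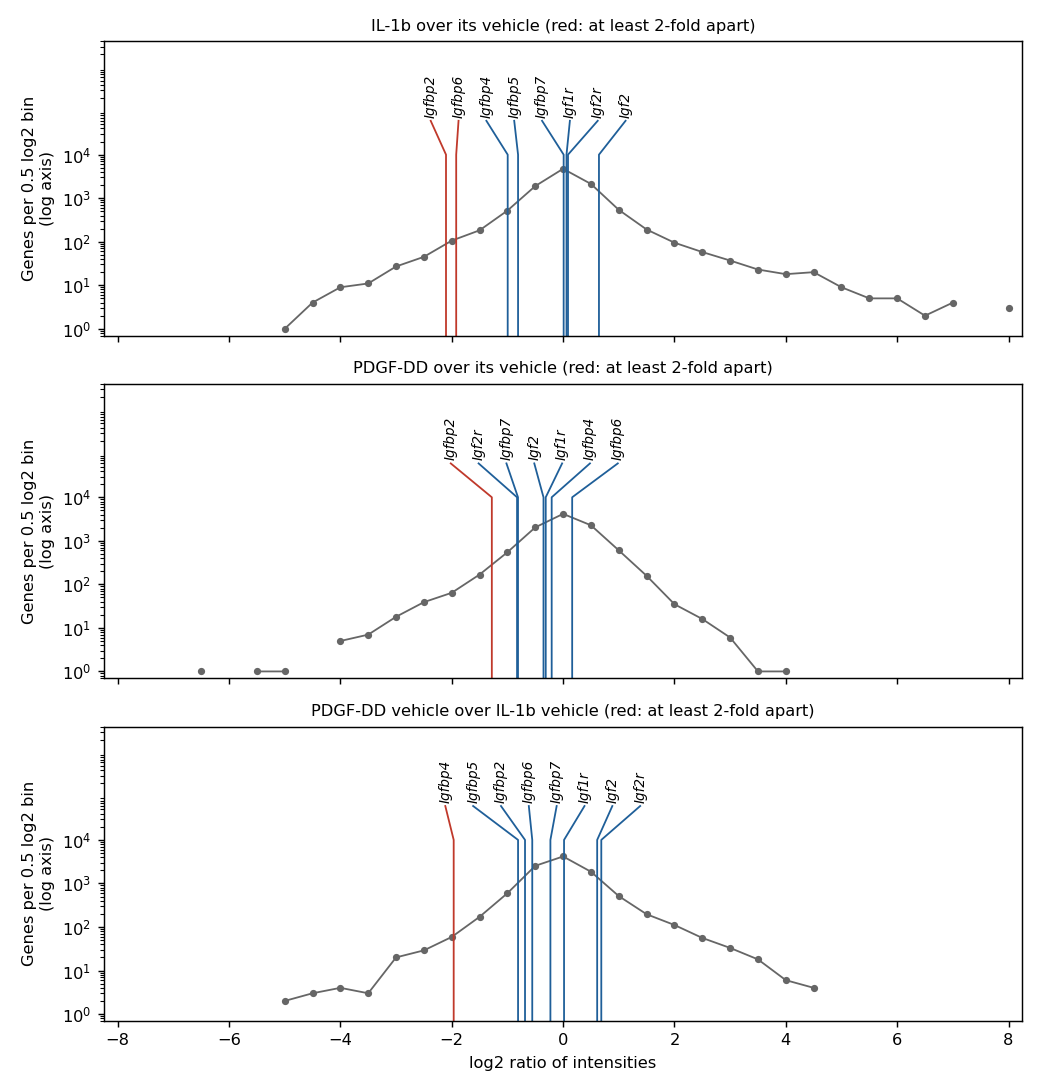
Number of genes per log2 ratio bin of 0.5 (log axis, grey line) in each of the 3 comparisons, with the position of each measured IGF gene. Genes at least 2-fold apart are red: Igfbp2 (-2.10) and Igfbp6 (-1.92) with IL-1b, Igfbp2 (-1.28) with PDGF-DD and Igfbp4 (-1.96) between the vehicles; no measured IGF gene lies past 2-fold on the higher side.

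The responses to the factors were set side by side as the IL-1b log2 ratio minus that of PDGF-DD, each against its own vehicle. For the 4 genes above the floor on all arrays it was -0.82 (Igfbp2), 0.92 (Igf2r), 0.82 (Igfbp7) and 0.37 (Igf1r). For the other 3 an array lay at the floor, so the difference is a bound. It was -2.08 or below for Igfbp6 and 0.995 or above for Igf2. For Igfbp4 it was -0.79 or above, and its sign is not settled, since a floor at the 30th percentile put the PDGF-DD ratio at -1.03, slightly below that of IL-1b. The median over the 7 genes, bounds included, was 0.37, against -0.01 over 9936 genes. No such difference was tested.

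Genes whose levels over the 4 arrays were most like those of an IGF gene were found for Igfbp2 and Igfbp7, which had the widest range (2.10 and 1.05 on the log2 scale) among the 4 members above the floor on all arrays. Likeness was the root mean square difference of log2 levels after each of 9165 genes was centred on its mean over the 4 arrays. Nearest to Igfbp2 were Reps2 (0.09), an endocytosis adaptor, Uvrag (0.10), an autophagy factor, and Adcy5 (0.11), an adenylyl cyclase. Adcy5 read 37.7 with IL-1b against 135 with its vehicle, and 34.2 with PDGF-DD against 86.8 with its vehicle, so it too was lower with each factor than with each vehicle. Nearest to Igfbp7 were Ercc5 (0.01), a DNA repair nuclease, Dnajc7 (0.02), a co-chaperone, and Tmem42 (0.02), a membrane protein. These distances rest on 4 single arrays and are a description.

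Other genes of the pathway were read from 5 lists with 49 genes in all. Among 10 genes that release or carry IGFs, 4 were above the floor on some array, and Igfals, Igfbp1, Igfbpl1 and Stc2 were not on any, while Pappa and Adam12 were not analysed here. With IL-1b 0 of 4 were at least 2-fold apart, and with PDGF-DD 1 of 3 was higher, beside 11.6% of all genes apart with IL-1b and 4.24% higher with PDGF-DD. That gene was Stc1 (stanniocalcin-1, an inhibitor of the IGFBP protease PAPP-A), which read 207 with IL-1b against 343 with its vehicle, and 273 with PDGF-DD against 48.8 with its vehicle. Its PDGF-DD vehicle reading was the low one, 7.03-fold under the IL-1b vehicle, and the 5.60-fold higher level with PDGF-DD was not seen against the IL-1b vehicle. Htra1, a secreted protease that cleaves matrix proteins and IGFBPs, read 1520 with IL-1b against 2761 with its vehicle, and 3510 with PDGF-DD against 2316 with its vehicle, all under 2-fold.

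Among 11 insulin and IGF receptor relatives and adaptors, 9 were above the floor on some array. With IL-1b 0 of 9 were at least 2-fold apart (median -0.25), and with PDGF-DD 1 of 8 was lower (median -0.23), beside 11.6% of all genes apart with IL-1b and 4.67% lower with PDGF-DD. That gene was Grb14, an adaptor that inhibits insulin receptor signalling, at 2787 with IL-1b against 3304 with its vehicle and 1355 with PDGF-DD against 4299 with its vehicle. The PDGF-DD array was below the other arrays, 3.17-fold below its own vehicle. The docking protein Gab1 was 1.96-fold lower with PDGF-DD (204 against 400) and the adaptor Shc1 1.95-fold higher with IL-1b (2234 against 1144), both just under the limit. The insulin receptor Insr read 76.3 with IL-1b against 121 with its vehicle, and 62.3 with PDGF-DD against 76.6 with its vehicle. The IRS adaptor Irs2 had log2 ratios of 0.59 and -0.67, and Irs1 was above the floor on the IL-1b vehicle array alone.

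**Figure D4:**
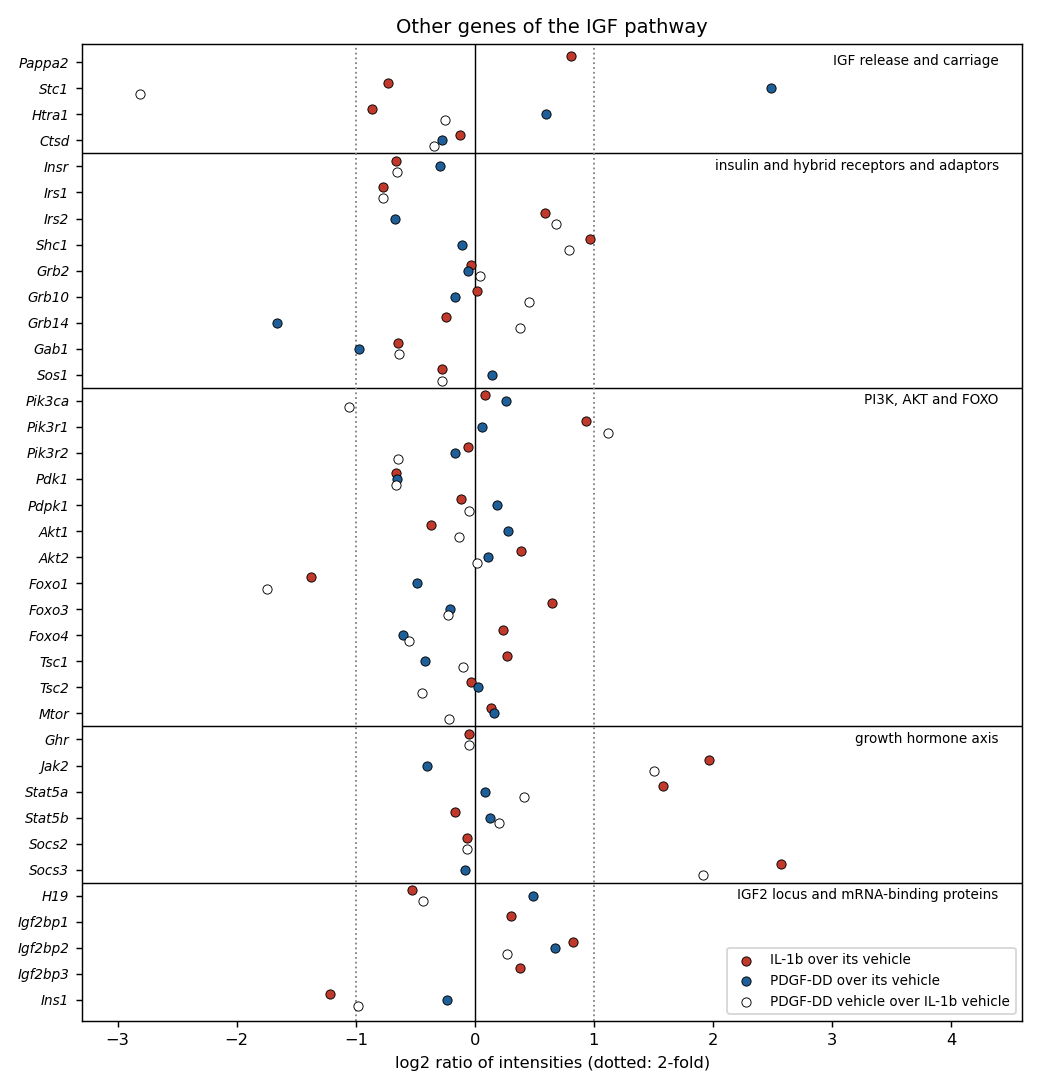
Log2 ratio (x axis) of the other pathway genes (rows, grouped by list) for IL-1b over its vehicle, PDGF-DD over its vehicle and the PDGF-DD vehicle over the IL-1b vehicle, 1 point per comparison, with dotted lines at 2-fold and bounds not marked. With IL-1b Socs3, Jak2 and Stat5a lie above 2-fold, and with PDGF-DD Stc1 lies above and Grb14 below.

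Among 16 genes of PI3K, AKT and FOXO, 13 were measured, 1 of them at least 2-fold lower with IL-1b and 0 apart with PDGF-DD, with medians of 0.08 and 0.03. Over all genes 5.42% were at least 2-fold lower with IL-1b and 8.91% apart with PDGF-DD. Foxo1, a transcription factor that AKT keeps out of the nucleus, read 130 with IL-1b against 339 with its vehicle, and 72.4 with PDGF-DD against 101 with its vehicle. The IL-1b vehicle array was the high one, and against the PDGF-DD vehicle array Foxo1 with IL-1b had a log2 ratio of 0.36. The kinase Akt1 read 1794 with IL-1b against 2322 with its vehicle, and 2570 with PDGF-DD against 2116 with its vehicle. Pik3r1, the regulatory subunit of PI3K, was 1.91-fold higher with IL-1b, at 239 against 125, but 272 on the PDGF-DD vehicle array.

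In the growth hormone axis, which controls Igf1 in liver, the IL-1b array had 3 of 6 measured genes at least 2-fold higher than its vehicle, and 0 of 4 were apart with PDGF-DD. Over all genes the IL-1b share at least 2-fold higher was 6.15%, and 8.91% were apart with PDGF-DD. Jak2, the kinase of the growth hormone receptor and of many cytokine receptors, was 3.90-fold higher (258 against 66.2), and the transcription factor Stat5a 2.99-fold (469 against 157). Socs3, a feedback inhibitor of cytokine receptors, was at least 5.94-fold higher, at 167 against the floor, and with its vehicle reading there it could only be higher. The PDGF-DD vehicle array had 188 for Jak2, 209 for Stat5a and 106 for Socs3, so against it Stat5a alone stayed past 2-fold, at a log2 ratio of 1.17. Ghr, the growth hormone receptor, read 29.1 on the IL-1b vehicle array and was at the floor on the other arrays.

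The last list of 6 genes held H19, the IGF2 mRNA-binding proteins and the insulin genes Ins1 and Ins2. Of these, 5 were measured with IL-1b and 3 with PDGF-DD. The only 1 at least 2-fold apart was Ins1, the pancreatic gene named above, at least 2.33-fold lower with IL-1b. Over all genes the same 5.42% were lower there. Ins1 was at the floor there and could only be lower. H19, the imprinted non-coding gene beside Igf2, read 39.8 with IL-1b against 57.5 with its vehicle, and 59.5 with PDGF-DD against 42.5 with its vehicle. These H19 readings were below the 65.4 of Ins1, so they cannot be told from background. Igf2bp2, which binds Igf2 mRNA among others, read 291 with IL-1b against 164 with its vehicle, and 315 with PDGF-DD against 198 with its vehicle. It was higher with each factor than with either vehicle, by 1.77-fold and 1.59-fold over its own.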

How the data were processed

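Total RNA of 4 cultures was measured on 4 Affymetrix rat arrays, 1 per group. The authors deposited linear intensities, 1 per probe set, and the submitters' processing notes name MAS5, with version and scaling target not given in the sources used here. Every deposited column had a median of 53.3. Detection calls were not used here, and the number of arrays limits the precision.

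Arrays were matched to groups by title. Each was rescaled to the mean left after trimming 2% of probe sets at each end (factors 1.01 for IL-1b, 1.03 for its vehicle, 0.951 for PDGF-DD and 1.01 for its vehicle). Values under the 40th percentile were set to that floor, and log2 ratios of single arrays were described by a 2-fold rule for genes that exceeded the floor on either array of a pair. Names came from the 2016 platform annotation, where 20832 probe sets had 1 symbol, 436 several and 9831 were not listed. All 23 probe sets of the 10 genes matched a GRCr8 gene by identifier. Promoter windows come from RefSeq, and protein sequences were not used here. The genes named are all 10 members, up to 4 genes per pathway list with the largest ratios, a few more of those lists chosen after their values were seen, and the 3 nearest in pattern to each of 2 members. The members and lists were chosen with earlier results of these data known. Alternatives were other scalings, floors, thresholds and vehicles and the mean over probe sets. The steps were tested on simulated data, with Python 3.11.15, numpy 2.4.6 and pandas 2.3.3.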

Additional observations from a re-analysis of the deposited data

Results flagged for a closer look

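For 5 of the 7 genes measured with both factors, the log2 ratios with IL-1b and with PDGF-DD, each against its own vehicle, had opposite signs. The share of all genes with opposite signs is not given here. Of all genes, 52.5% had a ratio above 0 with IL-1b and 51.0% with PDGF-DD. The difference, IL-1b minus PDGF-DD, was -2.08 or below for Igfbp6, 0.995 or above for Igf2, 0.92 for Igf2r, 0.82 for Igfbp7 and 0.37 for Igf1r. Each rests on 1 array per group and was not tested. The values of Igfbp6 and Igf2 each include an array at the floor, so their sizes depend on it. The Igf2 readings could not be told from background. Of the ratios behind these differences only that of Igfbp6 with IL-1b was at least 2-fold, and those of Igf1r, Igf2r and Igfbp7 with IL-1b were at most 0.09. No group had enough arrays to look for one that lies far from the rest.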

How the results depend on the processing

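Igfbp2 stayed at least 2-fold lower with both factors under every scaling and vehicle alternative tried. The floor and probe set alternatives could hardly move it, since it had 1 probe set and read far above every floor. With a floor at the 30th percentile, all 10 genes were measured with IL-1b and 4 were 2-fold apart, as Igf2 at 1.03 and Igfbp5 at -1.63 were added. With PDGF-DD 2 of 7 were apart, as Igfbp4 at -1.03 was added, and between the vehicles 2 of 10. The shares over all genes were 13.3%, 9.54% and 11.8%. The PDGF-DD median was -0.81. With a floor at the 50th percentile, IL-1b kept 1 of 6, beside 10.8% of all genes, since the bound of Igfbp6 came to -0.99. The PDGF-DD median was again -0.81. With no floor and log2(intensity + 16), 3 of 10 were apart between the vehicles, beside 8.19% of all genes. The median difference of the factors was then -0.25. A 1.5-fold threshold gave 5 of 8 with IL-1b, 3 of 7 with PDGF-DD and 5 of 8 between the vehicles. The shares of all genes past 1.5-fold were 25%, 25% and 26.3%. A 3-fold threshold gave 0 of 7 with PDGF-DD, beside 2.55% of all genes. Against the other factor's vehicle, 3 of 8 were apart with PDGF-DD, beside 20% of all genes, and the IL-1b median was 0.031. Against the mean of both vehicles, 2 of 8 were apart with PDGF-DD, beside 12.4% of all genes. A median was taken as moved when it shifted by over 0.324, the median absolute log2 ratio between the vehicle arrays. Of 161 recomputed ratios of single genes, 151 kept their side of the 2-fold limit, and no ratio past it changed sign. Genes near the floor, Igf2, Igfbp4, Igfbp5 and Igfbp6, gave all of the exceptions but Igfbp7, which was at -1.04 with PDGF-DD against the IL-1b vehicle. Ratios under 2-fold were counted as kept even where their sign changed. Against the other factor's vehicle Igfbp4 with IL-1b went from -0.995 to 0.970 and Igf2r with IL-1b from 0.088 to -0.598. Igfbp6 with PDGF-DD went from 0.163 to -0.391. Ratios not measured under an alternative were left out of the count. Bright genes under other floors, and genes with 1 probe set under the mean, could hardly move. The cause of the shifts was not tested.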

Other observations

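In the GRCr8 annotation Igfbp2 and Igfbp5 are neighbouring protein-coding genes on chromosome 9. Both had their highest reading on the IL-1b vehicle array, 6873 for Igfbp2 and 49.2 for Igfbp5, the latter not told from background. Igfbp4 on chromosome 10 (126) and both probe sets of Igfbp6 on chromosome 7 (106 and 61.4) were also highest there. A peak on that array was therefore not particular to the neighbours. Igfbp3 lies beside Igfbp1 on chromosome 14, and both were at the floor on all 4 arrays. Igfbp4 lies beside Top2a on chromosome 10, a gene of dividing cells, and their levels split the opposite way between the IL-1b and PDGF-DD pairs of arrays. All 6 cell division markers had the split of Top2a, so it was not particular to the neighbour of Igfbp4. Within the IL-1b pair both genes were lower with IL-1b, Igfbp4 at 63.4 against 126. Top2a read 99.3 with IL-1b against 104 with its vehicle, and 1561 with PDGF-DD against 976 with its vehicle, whereas Igfbp4 was higher on the IL-1b and IL-1b vehicle arrays than on the PDGF-DD and PDGF-DD vehicle arrays. Over 4 arrays this is a description of single readings.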
